A study of Homo sapiens with 4 samples.

Results

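Cannabichromene (CBC), a non-psychotropic cannabinoid of hemp, was applied to the pancreatic cancer line MIA PaCa-2, and the response of this line was read from 2 of the 4 mRNA-seq libraries of the study. The genes described are those that reached at least 1 CPM (counts per 1e6 counts of the TMM-scaled library) in the MIA PaCa-2 PBS or the MIA PaCa-2 CBC library. There were 14001 such genes of 15590 that reached this level in either line, and of 58233 gene identifiers in the count table. MIA PaCa-2 is an established line from a pancreatic carcinoma, as is PANC-1, the other line of the study. MIA PaCa-2 cells received 35 µM CBC and PANC-1 cells 30 µM, each for 24 h. The labels name PBS as the control of both lines, whereas the protocol describes CBC dissolved in acetonitrile and a vehicle control, so what the control cells received beside PBS is not settled here. Each line was grown in a single serum-supplemented medium, and neither line carries a label of any other treatment.

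Every group was 1 library, so that no difference below has a replicate check, and no p-value is given. Library totals ranged from 21742775 to 27903667 counts. Fold changes are log2 ratios of CBC over PBS after TMM scaling of the 4 libraries with a prior count of 2, and a gene past 1 in either direction (a 2-fold change) is called a higher or lower DEG. Bracketed ranges are 95% intervals that cover counting error only. The line and the CBC dose changed together, so their parts in any difference between the lines cannot be told apart. Of the keratins of ductal epithelium, KRT8 and KRT18 were abundant in MIA PaCa-2 (KRT8 with 40044 counts in the PBS library and 30933 in the CBC library, KRT18 with 31917 and 28187). KRT7 of the same marker set had only 2 and 52 counts. The epithelial markers CDH1 and EPCAM had at most 1 count in either library. Of the markers fixed for other cells, all 5 acinar genes were at 0 in both libraries, and the summed leukocyte markers were at 0.135 CPM with PBS and 0.364 CPM with CBC. Summed fibroblast markers, nearly all COL1A2, stood at 370.8 CPM with PBS and 95.5 with CBC, with DCN and LUM at 0, and endothelial markers at 2.20 and 0.364 CPM. Their part in the results was not tested.

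Secreted and membrane proteins fold in the endoplasmic reticulum (ER), and unfolded protein there is sensed by the membrane proteins encoded by ERN1, EIF2AK3 and ATF6. These sensors raise transcription of ER chaperones and of the ER-associated degradation (ERAD) machinery, and through translation of the factor ATF4 they raise amino acid and stress genes. Separately, foreign or misplaced RNA is sensed by RIGI and IFIH1, which lead to interferon transcription, and interferons in turn raise the interferon-stimulated genes. The factor NF-kB drives chemokine genes and its own inhibitors, and immediate early genes such as FOS and EGR1 follow growth factor and stress kinases.

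Of the genes tested in MIA PaCa-2, 1608 (11.5%) passed the call as higher and 1256 (8.97%) as lower. In PANC-1 the figures were 1087 higher (7.71% of 14091) and 991 lower (7.03%). These shares over all genes are the background of every list count below. A gene under 1 CPM with PBS was tested only where the CBC library reached 1 CPM, which favours higher calls among such genes. The median log2 fold change over all genes tested was -0.01 in MIA PaCa-2 and 0.02 in PANC-1. Changes of 8-fold or more were found for 197 higher and 29 lower genes in MIA PaCa-2, against 67 and 22 in PANC-1. Of the 1608 higher DEGs, 416 were called the same way in PANC-1, 27 were called the other way, and 391 did not reach 1 CPM in either PANC-1 library. Of the 1256 lower DEGs, 372 were called the same way, 14 the other way, and 271 did not reach 1 CPM in PANC-1. Genes that did not reach 1 CPM in PANC-1 were thus 24.3% of the higher and 21.6% of the lower DEGs. Of all 14001 genes tested in MIA PaCa-2 they were 1499.

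Genes were put on the MIA PaCa-2 side when they were DEGs in MIA PaCa-2, reached 1 CPM in both lines, and changed by less than 0.5 in the same direction in PANC-1 on the log2 scale. Of the 12502 genes that both lines expressed, 472 were higher on this side (3.78%) and 380 were lower (3.04%). The counting interval of the difference between the lines lay wholly past 1 for 229 of the higher and 135 of the lower genes. By the same rule with the lines exchanged, 219 genes were higher and 194 lower on the PANC-1 side. The difference between the lines was not tested, since neither line has a second library.

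**Figure D1:**
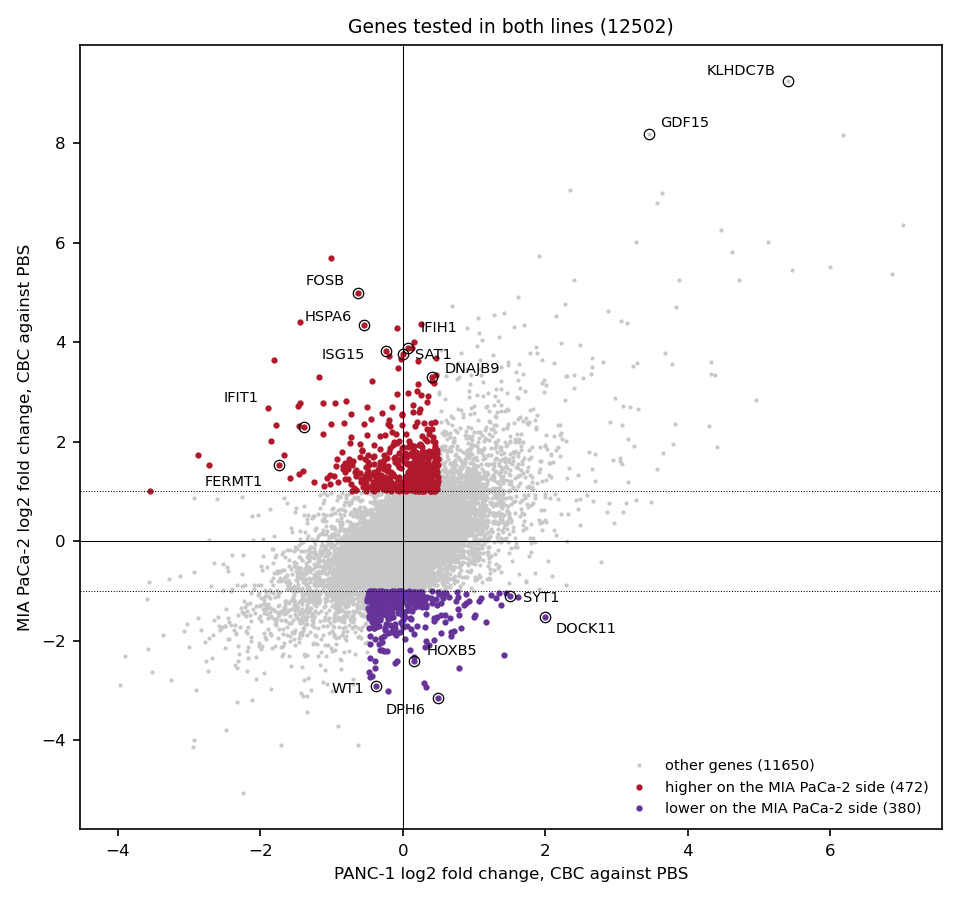
Each point is 1 of the 12502 genes tested in both lines, with its log2 fold change (CBC against PBS) in PANC-1 on the x axis and in MIA PaCa-2 on the y axis, and dotted lines mark 1 and -1 in MIA PaCa-2. The 472 red and 380 purple genes on the MIA PaCa-2 side form 2 blocks above and below the axis, while KLHDC7B and GDF15 at the upper right were higher in both lines.

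Several of the genes with the largest changes in MIA PaCa-2 had few or no counts in its control library. GDF15, a stress cytokine, had 5 counts with PBS and 2221 with CBC, while PANC-1 already held 407 counts with PBS and 5400 with CBC. ITGAX, a leukocyte integrin, had 0 and 271 counts, at least 81.2-fold higher when the control is set at 3 counts, and PANC-1 had 8 and 58. NEURL3, a ubiquitin ligase, went from 4 to 711 counts and did not pass 11 counts in either PANC-1 library. CCND2, a D-type cyclin, had 1 and 400 counts, and CHST1, a sulfotransferase, 4 and 715, and both were higher DEGs in PANC-1 too (2 and 56, and 2 and 53). ITGAM, the integrin gene beside ITGAX on chr16:31214119-31382999, was higher too, with 12 and 491 counts, whereas PTPRC and CD3E, markers of leukocytes themselves, had 0 counts in both libraries. SAT1, the enzyme that starts polyamine breakdown, was among the genes higher on the MIA PaCa-2 side. It had 958 counts with PBS and 14383 with CBC, a log2 fold change of 3.75 (3.66 to 3.85), against 1467 and 1763 counts in PANC-1.

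ER chaperone and ERAD genes had larger fold changes in MIA PaCa-2 than in PANC-1, though not higher levels in every library. Of 23 genes tested, 13 were higher DEGs in MIA PaCa-2 and 1 was lower, with a median of 1.20, whereas PANC-1 had 5 higher DEGs of 22, the median being 0.03. The counting interval of the difference between the lines lay above 0 for 21 of the 22 genes tested in both, against 32.1% of all genes. DNAJB9, a co-chaperone of the ER, had 236 counts with PBS and 2597 with CBC in MIA PaCa-2, and 383 and 612 in PANC-1. Its log2 fold change was 3.30 (3.11 to 3.51) in MIA PaCa-2 and 0.41 (0.22 to 0.60) in PANC-1. HERPUD1, which recruits ERAD substrates, had 689 and 7214 counts against 472 and 1744. HSPA5, the main ER chaperone BiP, was higher in both lines (13505 and 80876 counts against 16620 and 72578). It made the largest gain in share of library counts of any gene in MIA PaCa-2, from 0.0621% to 0.350%.

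Several other genes of the list had opposite signs in the 2 lines. HSP90B1, the ER form of HSP90, had 12441 and 30189 counts in MIA PaCa-2 and 21793 and 19655 in PANC-1. MANF, SDF2L1, SELENOK and DNAJC3 were higher DEGs in MIA PaCa-2 at log2 fold changes of 1.26, 1.27, 1.20 and 1.37, and were at -0.58, -0.47, -0.33 and -0.50 in PANC-1. The lectin chaperones CALR and CANX did not reach the call in MIA PaCa-2 (0.64 and 0.61) and stood at -0.91 and -0.13 in PANC-1. CREB3L3 was the only lower DEG of the list, from 65 to 21 counts. Cytosolic heat shock chaperones, a list kept apart from those of the ER, gave 1 higher DEG of 18 and a MIA PaCa-2 median of -0.02, while PANC-1 stood at -0.67. With library totals as the scaling the MIA PaCa-2 median of that list was 0.05, so it has no direction there. All 18 of their difference intervals lay above 0.

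Promoter stretches are given for ER genes because 6 of the 23 windows of this list (26.1%) held the ER stress response element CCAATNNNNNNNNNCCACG on either strand, a motif found in 14 of 10147 windows of all tested genes (0.138%). A window is the RefSeq sequence from 250 bases before to 50 bases after a gene's start (GRCh38.p14), and 10147 of the 14001 genes matched one. Among the higher DEGs of the list, 3 of 13 windows held the element. The element includes the CCAAT box, which 21 of the 23 windows held, against 36.8% of all windows. Capitals mark the element. HSPA5 is shown from chr9:125241357-125241443 (minus strand), XBP1, the factor spliced by ERN1, from chr22:28800570-28800655 (minus strand), and HSP90B1 from chr12:103930287-103930373 (plus strand), where, of 2 matches, the one nearest the start is shown, which lies on the opposite strand. A match is a description of these letters and not a bound site.
HSPA5: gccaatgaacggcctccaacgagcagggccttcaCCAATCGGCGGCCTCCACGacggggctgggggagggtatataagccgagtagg
XBP1: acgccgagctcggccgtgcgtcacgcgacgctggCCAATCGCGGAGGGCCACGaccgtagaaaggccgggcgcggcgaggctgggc
HSP90B1: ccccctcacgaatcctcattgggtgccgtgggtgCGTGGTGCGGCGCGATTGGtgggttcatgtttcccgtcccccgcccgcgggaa

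Part of the machinery that carries proteins between the ER and the Golgi apparatus was called higher in MIA PaCa-2. These lists were written after the values were seen, so their counts are a description. SEC24D, a cargo adaptor of the COPII coat that buds from the ER, had 286 counts with PBS and 1911 with CBC in MIA PaCa-2, and 1637 and 1600 in PANC-1. Its log2 fold change was 2.58 (2.41 to 2.77) and -0.30 (-0.40 to -0.20). SEC31A of the same coat had 2344 and 6003 counts against 3210 and 4149. In the COPI coat, which returns proteins to the ER, COPA had 4028 and 11404 counts against 5453 and 7694, and COPG1 had 4026 and 9884 against 5187 and 6689. ARF4, a GTPase that loads this coat, was at 1.57 in MIA PaCa-2 and 0.21 in PANC-1.

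Higher DEGs of MIA PaCa-2 were 5 of 15 COPI genes, 2 of 12 COPII genes and 7 of 21 ER-Golgi SNAREs, receptors and tethers. Over all genes tested the share was 11.5%, and the COPII count is near it. All of these MIA PaCa-2 DEGs were on the MIA PaCa-2 side, and no gene of the 3 lists was a DEG in PANC-1. Members of the coats also lay below 0 in MIA PaCa-2, SEC23A at -0.23 and SEC31B at -0.87. The SNAREs STX5 and GOSR2 stood at 1.23 and 1.18 in MIA PaCa-2 against 0.29 and 0.20. The KDEL receptors KDELR1 and KDELR2, which retrieve escaped chaperones, were not called, at -0.02 and 0.16, against -0.60 and -0.46 in PANC-1. KDELR3 was not called either, at 0.69 against -0.19. Among protein disulfide isomerases, P4HB had 12484 and 33697 counts in MIA PaCa-2 against 22716 and 23026 in PANC-1, and PDIA3 had 6401 and 14408 against 11850 and 9922. PDIA6 was not called, at 0.03 in MIA PaCa-2 and -0.52 in PANC-1.

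Of 12 sensors and transcription factors of ER stress, a list written after the values were seen, 6 were higher DEGs and 1 was lower in MIA PaCa-2. ERN1 (247 and 1986 counts, against 258 and 1508) and XBP1 (1819 and 9612, against 1095 and 3121) were higher DEGs in both lines. EIF2AK3, the sensor kinase PERK, had 323 and 1106 counts in MIA PaCa-2 and 543 and 624 in PANC-1. ATF6 stood at 1.09 in MIA PaCa-2 and at 0.89 in PANC-1. CREB3 and CREB3L2, membrane-bound factors that are cut in the Golgi apparatus, had log2 fold changes of 1.85 and 1.97 in MIA PaCa-2 and of 0.14 and -0.09 in PANC-1. CREB3 overlaps GBA2 on the opposite strand. Targets of ATF4 were higher in both lines, with 30 DEGs of 37 and a median of 1.91 in MIA PaCa-2 against 27 of 37 and 1.63 in PANC-1, and none of them was on the MIA PaCa-2 side.

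**Figure D2:**
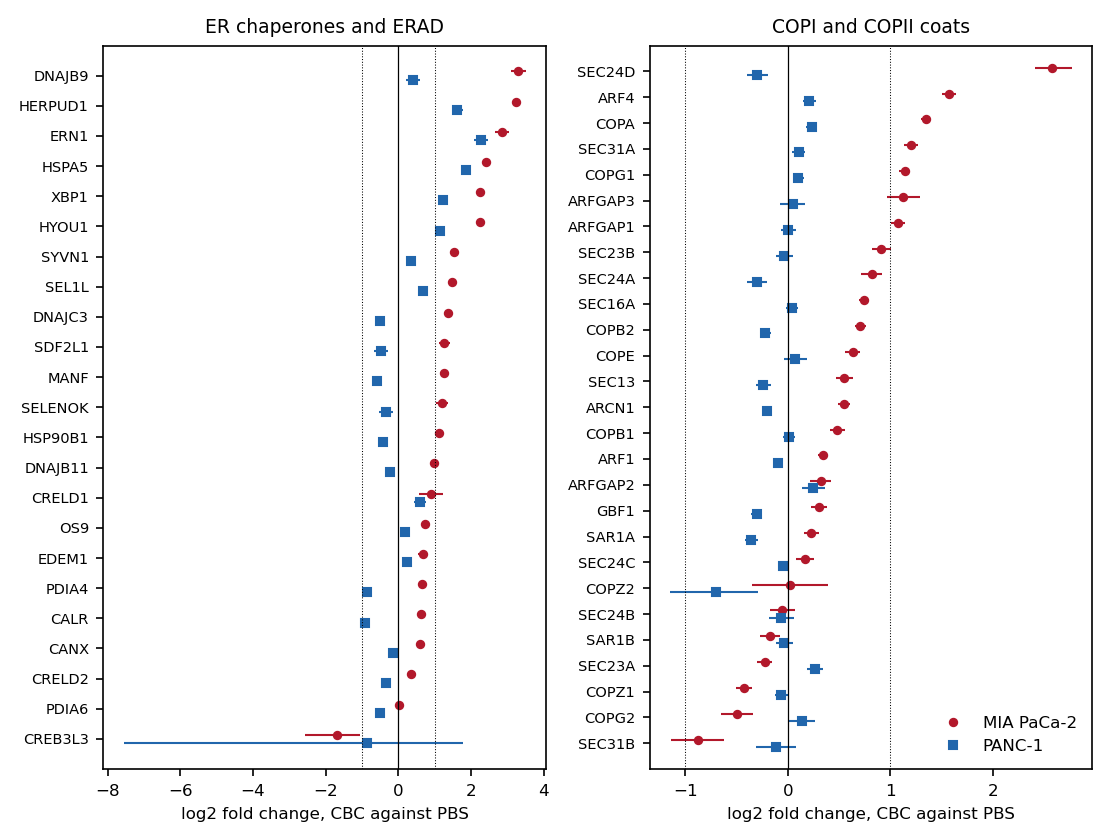
Log2 fold change (CBC against PBS, x axis) of the tested ER chaperone and ERAD genes (left) and of COPI and COPII coat genes (right) in MIA PaCa-2 (red circles) and PANC-1 (blue squares), with 95% counting intervals as bars and dotted lines at 1 and -1. In the left panel every red circle of the genes tested in both lines lies to the right of its blue square, and SEC24D leads the right panel at 2.58 against -0.30.

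About as many interferon-stimulated genes were called higher in MIA PaCa-2 as were not called. Of 23 genes tested in MIA PaCa-2, 12 were higher DEGs, beside 11.5% of all genes tested, and none was lower, with a median of 1.10. PANC-1 had 5 higher and 2 lower of 20 and a median of 0.07. Of the 18 genes tested in both lines, 11 had a difference interval above 0, against 32.1% of all genes. On the MIA PaCa-2 side as higher were 5, against 3.78% of all genes tested in both. ISG15, a ubiquitin-like modifier, had 263 counts with PBS and 4166 with CBC in MIA PaCa-2, and 669 and 679 in PANC-1. Its log2 fold change was 3.82 (3.65 to 4.02) in MIA PaCa-2 and -0.24 (-0.40 to -0.09) in PANC-1. IFIH1, which encodes the RNA sensor MDA5, had 35 and 599 counts against 57 and 72, and RIGI had 284 and 1417 against 786 and 883. DHX58, the third member of that sensor family, had 80 and 425 counts against 72 and 112. RSAD2, which encodes the antiviral enzyme viperin, had 1 and 411 counts in MIA PaCa-2 and 0 in both PANC-1 libraries. It was tested only because the CBC library reached 1 CPM.

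IFIT1, IFIT2 and IFIT3, neighbours on chr10:89283694-89406487 that bind viral RNA, were all higher in MIA PaCa-2. IFIT1 had 502 and 2744 counts in MIA PaCa-2 and went the other way in PANC-1, from 250 to 114. All 3 overlap LIPA on the opposite strand. IFIT3 had 305 and 3686 counts against 21 and 64, and IFIT2 434 and 3680 against 24 and 74, so that both were higher DEGs in PANC-1 too. HERC5, the ligase that attaches ISG15, lies in a run of 4 higher DEGs with ABCG2, PPM1K and HERC6 on chr4:88090150-88506163 and stood at 3.87 in MIA PaCa-2 against 0.13 in PANC-1. The 3 lambda interferon genes on chr19:39243455-39298673 went from 0 to 2 counts in the PBS library to 57 (IFNL3), 58 (IFNL2) and 109 (IFNL1) in the CBC library, while no PANC-1 library passed 1 count of any of them. IFNL2 and IFNL3 are near-identical copies, so the split of reads between them is uncertain. IFNB1 had 0 counts in all 4 libraries, which at 3 counts allows up to 0.135 CPM in the MIA PaCa-2 control.

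Several genes that interferon is known to raise did not share this pattern. IFI6 had 293 and 223 counts in MIA PaCa-2, and BST2 had 40 and 28. IRF7, a factor of the interferon loop, was at 0 counts in both MIA PaCa-2 libraries and at 266 and 862 in PANC-1. The membrane antiviral genes IFITM2, IFITM1 and IFITM3 lie in a run of lower DEGs with B4GALNT4 on chr11:303655-382117. IFITM3 had 3328 and 1120 counts, IFITM2 1557 and 236, and IFITM1 694 and 203 in MIA PaCa-2. In PANC-1 IFITM2 was a lower DEG too, at -1.07 (117 and 66 counts), and IFITM3 stood at -0.58 (3663 and 2946 counts).

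Promoter stretches of interferon-type genes are given because 11 of the 16 windows of the list (68.8%) held the interferon-stimulated response element GAAANNGAAA on either strand, against 265 of 10147 windows of all tested genes (2.61%). The list's higher DEGs held it in 6 of 9 windows, a share like that of the whole list. Of the 344 windows of genes higher on the MIA PaCa-2 side 5.52% held it, and of the 287 windows of higher DEGs shared with PANC-1 2.44%. Capitals mark all matches within the stretch. ISG15 is from chr1:1013356-1013433, IFIT3 from chr10:89327841-89327918 and IFIT1 from chr10:89392486-89392563, all on the plus strand.
ISG15: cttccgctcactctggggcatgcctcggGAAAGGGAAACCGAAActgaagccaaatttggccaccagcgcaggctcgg
IFIT3: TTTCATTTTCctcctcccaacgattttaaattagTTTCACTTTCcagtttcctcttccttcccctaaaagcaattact
IFIT1: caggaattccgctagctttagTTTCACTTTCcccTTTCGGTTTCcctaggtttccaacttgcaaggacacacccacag

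NF-kB subunits and targets gave 11 higher DEGs of 18 and no lower DEG in MIA PaCa-2, against 2 of 19 in PANC-1, and the median difference between the lines was 1.14 over the 18 genes tested in both. Of the 11, 8 were on the MIA PaCa-2 side. TRAF1, an adaptor of TNF receptors, had 503 counts with PBS and 12634 with CBC in MIA PaCa-2, and 308 and 775 in PANC-1. TNFAIP3, which encodes the NF-kB inhibitor A20, had 60 and 875 counts against 132 and 220. The inhibitor genes NFKBIA and NFKBIB stood at 1.51 and 1.80 in MIA PaCa-2 and at 0.35 and 0.27 in PANC-1, and NFKBIZ, a nuclear member of that family, at 2.36 and -0.54. NFKBIE had 278 and 876 counts against 249 and 288. Of the subunits, NFKB2 had 1046 and 6649 counts, RELB 326 and 1788 and RELA 1103 and 2689 in MIA PaCa-2. NFKB1 and REL did not reach the call, at 0.17 and 0.19.

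Of 30 chemokine and cytokine genes, 14 were tested in MIA PaCa-2. Of these 11 were higher DEGs and 1 was lower, with a median of 2.19, beside 11.5% of all genes called higher. Some, such as IL23A and CCL5 at 0.360 CPM with PBS, were tested only because the CBC library reached 1 CPM. Such genes raise both the count and the median. PANC-1 had 4 higher and 2 lower of 11 and a median of 0.11, but only 8 of the genes were tested in both lines. The 2 medians thus cover different genes. Over the 8 shared genes the median difference was 0.90, 4 had a difference interval above 0 and 1 was on the MIA PaCa-2 side. IL23A, a subunit of interleukin 23, had 8 and 825 counts in MIA PaCa-2 and 2 and 10 in PANC-1. CCL5, a T cell chemokine, had 8 and 367 against 4 and 26. CXCL5, CXCL3 and CXCL2, neutrophil chemokines on chr4:73995642-74099196, were higher together, CXCL2 from 161 to 1710 counts, whereas CXCL1 had 2248 and 2213 counts. CSF3, the granulocyte growth factor, had 459 and 2338 counts in MIA PaCa-2 and 0 in both PANC-1 libraries. CSF1, the macrophage growth factor, moved in opposite directions, with 934 and 2621 counts in MIA PaCa-2 and 1602 and 943 in PANC-1. IL11 was the lower DEG, from 57 to 29 counts.

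In the TNF superfamily, a list of 27 genes written after the values were seen, 16 were tested in MIA PaCa-2. Of these 8 were higher DEGs, beside 11.5% of all genes tested, and 2 were lower. TNFSF15, TNFRSF4 and TNFRSF11A, with 3, 5 and 10 counts with PBS, were tested only because the CBC library reached 1 CPM. TNFSF15 had 3 and 239 counts in MIA PaCa-2 and 0 in PANC-1. TNFRSF9, the costimulatory receptor 4-1BB, had 78 and 1514 counts against 9 and 31, and its ligand TNFSF9 had 59 and 347 against 1051 and 709. The TRAIL receptor TNFRSF10B was higher in both lines (2450 and 8743 counts, against 1546 and 6496). TNF itself had 4 and 15 counts in MIA PaCa-2.

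Stretches with NF-kB sites are shown for 3 genes that were called in MIA PaCa-2. Of the 15 windows of the NF-kB list 7 held a site (46.7%), against 13.2% of all windows. Of the windows of the list's higher DEGs 4 of 8 held one. Over all higher DEGs of MIA PaCa-2 the share was 13.7%, and for genes higher on the MIA PaCa-2 side 11.9%. Higher DEGs that did not reach 1 CPM in PANC-1 held a site in 33 of 161 windows (20.5%). TNFAIP3 is from chr6:137867170-137867247 (plus strand), CXCL2 from chr4:74099229-74099306 (minus strand) and IL23A from chr12:56338755-56338832 (plus strand). Capitals mark the sites within each stretch.
TNFAIP3: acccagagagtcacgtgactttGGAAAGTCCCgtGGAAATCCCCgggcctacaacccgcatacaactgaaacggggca
CXCL2: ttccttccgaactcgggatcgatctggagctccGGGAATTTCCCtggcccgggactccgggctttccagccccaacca
IL23A: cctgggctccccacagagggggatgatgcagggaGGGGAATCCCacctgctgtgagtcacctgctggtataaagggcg

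Immediate early transcription factors had the second-highest list median of MIA PaCa-2, 1.99, with 16 higher DEGs and 1 lower of 23, against 4 higher of 22 and a median of 0.21 in PANC-1. On the MIA PaCa-2 side were 10 of the 16. FOSB, a partner of the AP-1 factor, had 16 counts with PBS and 626 with CBC in MIA PaCa-2, and 165 and 127 in PANC-1, and it overlaps ERCC1 on the opposite strand. EGR1, a zinc finger factor of the growth factor response, had 701 and 7116 counts against 158 and 258. FOS had 67 and 594 against 23 and 26, JUNB 565 and 3219 against 455 and 471, and JUN 2245 and 9941 against 4290 and 7021. MYC stood at 1.22 in MIA PaCa-2 and -0.07 in PANC-1. ATF3 and MAFF were higher in both lines. KLF2 was the lower DEG, from 1261 to 697 counts. Serum response elements, the promoter sites of this class, stood in the EGR1 window as shown here in capitals (chr5:138465362-138465439, plus strand), in 2 of the 18 windows of this list, and in 0.936% of all windows.
EGR1: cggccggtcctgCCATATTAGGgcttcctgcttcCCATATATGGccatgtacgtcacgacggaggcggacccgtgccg

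**Figure D3:**
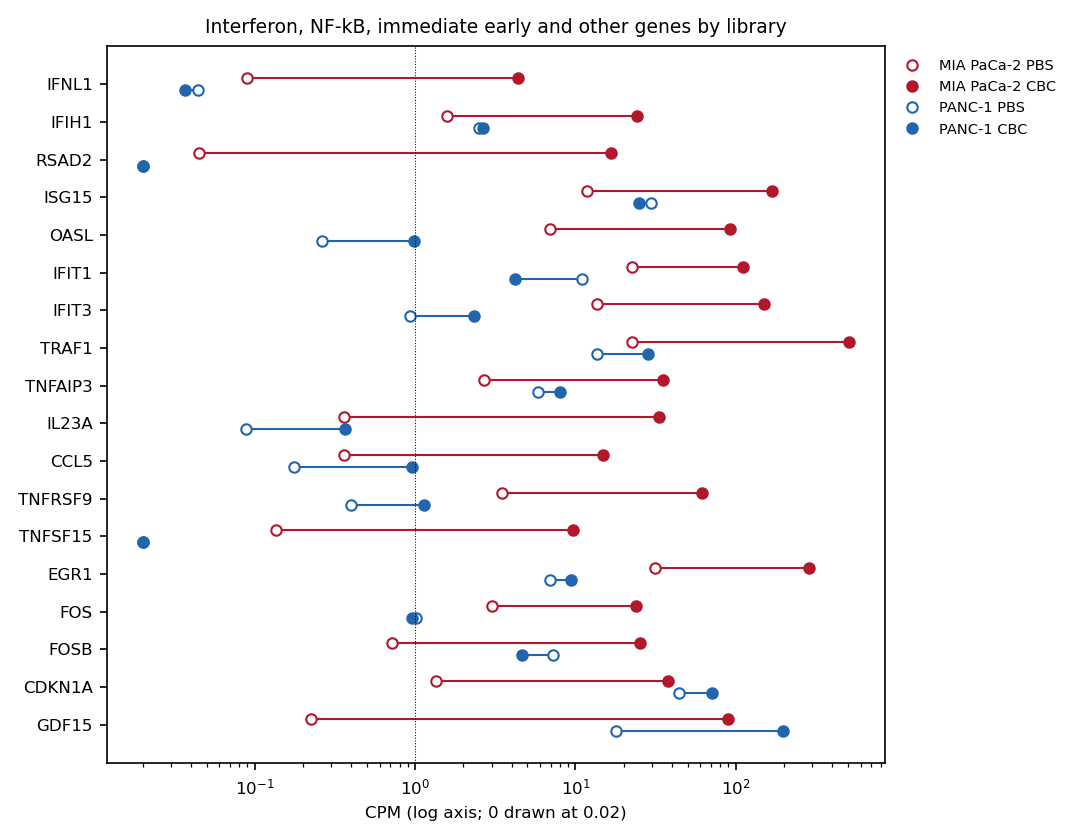
Level in CPM (x axis, log scale) of 18 genes in the PBS (open circles) and CBC (filled circles) libraries of MIA PaCa-2 (red) and PANC-1 (blue), with values of 0 drawn at 0.02 and a dotted line at 1 CPM. The genes were chosen with their values known, so it adds no support that the red lines, which join the MIA PaCa-2 libraries, are long throughout. The blue lines of ISG15, IFIH1 and FOS are short. GDF15 has a long blue line, as do, at levels under 1 CPM, CCL5 (0.176 to 0.952 CPM), IL23A (0.0880 to 0.366) and OASL (0.264 to 0.988).

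The next genes, linked to cell cycle arrest or DNA damage, were chosen after their values were seen and stand for no group. CDKN1A, the cell cycle inhibitor p21, had 30 counts with PBS and 933 with CBC in MIA PaCa-2, whereas PANC-1 held 1007 and 1955. The ubiquitin ligase gene MDM2 had 1844 and 5720 counts against 3364 and 3454, and BTG2, an antiproliferative gene, 317 and 1117 against 38 and 31. PPM1D, a phosphatase gene, was not called (0.05), and DDB2, a DNA damage sensor, was lower, from 600 to 243 counts. GADD45A and SESN2, which are known to answer ER or amino acid stress, stood at 3.78 each in MIA PaCa-2.

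In MIA PaCa-2, 4 of 15 tested BCL2 family genes passed the call as higher, beside 11.5% of all genes tested. All were of the BH3-only kind, and none was on the MIA PaCa-2 side. BBC3 (PUMA) had 153 and 1688 counts, PMAIP1 (NOXA) 121 and 1215, HRK 10 and 163 and BIK 10 and 51. HRK and BIK were under 1 CPM with PBS and were tested only because the CBC library reached 1 CPM. In PANC-1 BBC3 stood at 0.79 and PMAIP1 at 0.94, and BIK was at 0. The other 11 family members were not called. BAX, which forms pores in the mitochondrial membrane, had 2695 and 3117 counts, and BCL2 201 and 198. The family's median was 0.51 in either line, and over the 12 genes tested in both the median difference was -0.08. CASP6, a caspase gene, had 153 and 77 counts in MIA PaCa-2 against 274 and 417, with MCUB on its opposite strand.

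Smaller groups gave the following values. HLA-B and HLA-C, which present peptides, were called higher at 1.85 and 1.59, and stood at 0.76 and 0.60 in PANC-1. Reads of these genes can be split between near-identical copies. Of 8 EGF receptor and ligand genes tested 4 were higher DEGs and 1 was lower, none on the MIA PaCa-2 side, and over the 5 genes tested in both lines the median difference was -0.16. AREG went from 1341 to 5368 counts (20 and 27 in PANC-1), HBEGF from 103 to 699 (533 and 1604) and EPGN from 60 to 269 (0 and 1), and the receptor ERBB3 was lower, from 94 to 33. NDRG1, a stress and hypoxia gene, had 102 and 1262 counts, and the peptide hormone gene ADM 99 and 295 against 1785 and 1525 in PANC-1. Of 21 cannabinoid receptor, TRP channel and endocannabinoid enzyme genes, 12 were tested in MIA PaCa-2 and 3 were higher DEGs at low counts: MGLL, which overlaps SEC61A1, from 6 to 54, TRPM8 from 23 to 89, and FAAH, which hydrolyses anandamide, from 14 to 44. The receptor genes CNR1 and CNR2 had 0 and 1 count in each MIA PaCa-2 library.

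**Figure D4:**
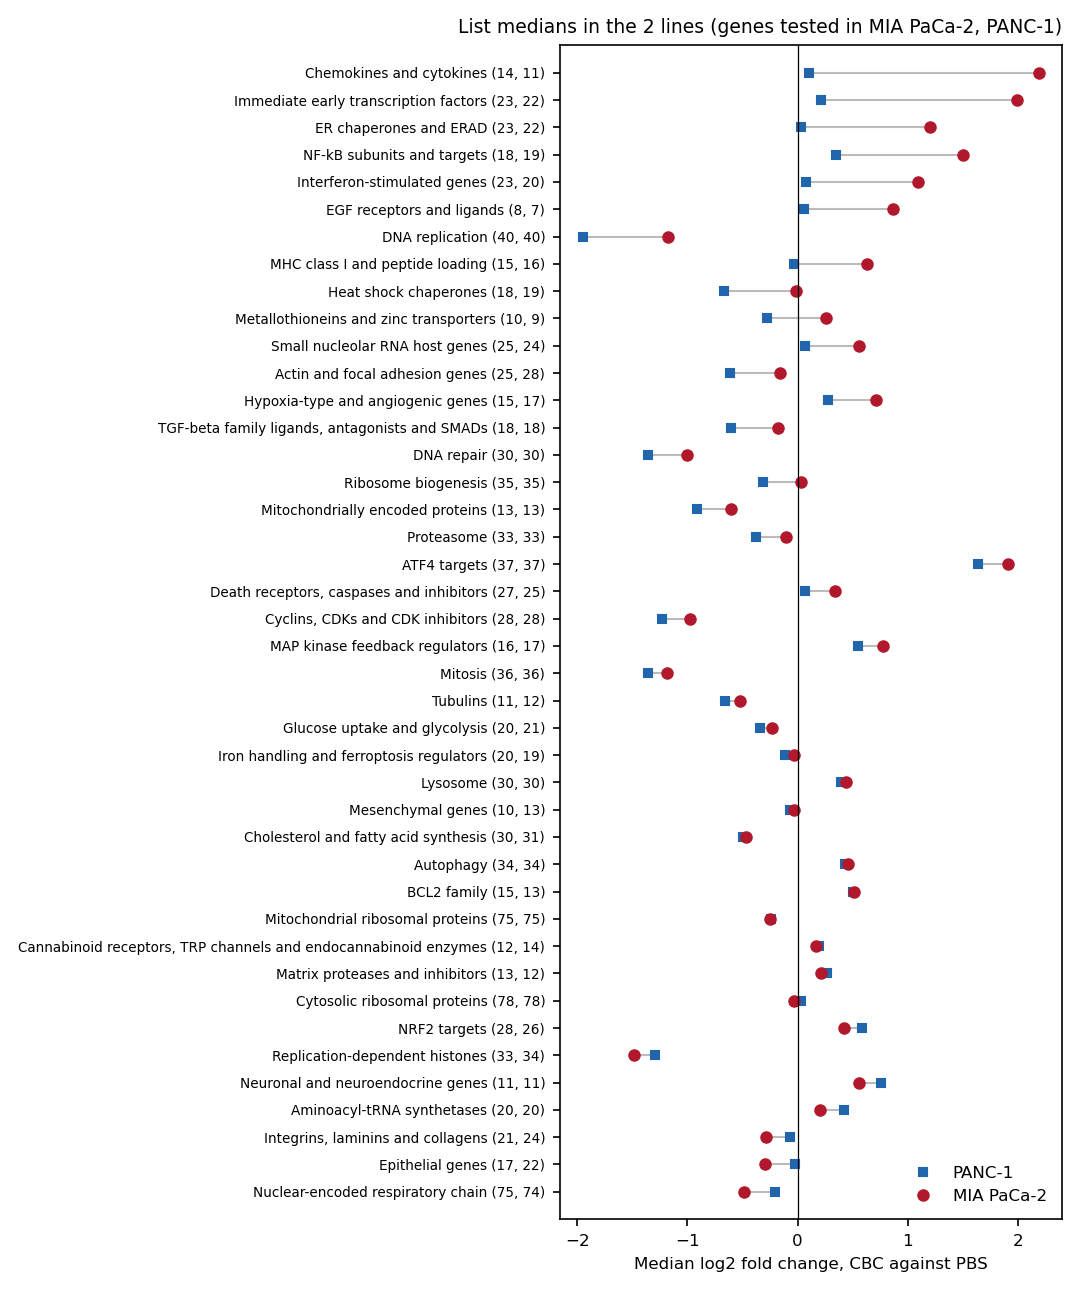
Median log2 fold change (CBC against PBS, x axis) of the tested genes of each list shown in MIA PaCa-2 (red circles) and PANC-1 (blue squares), in order of the difference between the lines, with the numbers of tested genes in parentheses. Chemokines, immediate early factors, ER chaperones, NF-kB and interferon-stimulated genes lie far to the right of PANC-1, and ATF4 targets lie close in both lines at 1.91 and 1.63. The 2 medians of a list can cover different genes. For chemokines the median difference over the 8 genes tested in both lines was 0.90.

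Lower DEGs of MIA PaCa-2 included homeobox genes of the HOXB cluster, which set position in the embryo and are kept active in many lines. This list and the next 2 were written after the values were seen. All 9 tested HOXB genes had negative log2 fold changes in MIA PaCa-2, 4 of them called, with a median of -0.83, against -0.04 in PANC-1. HOXB5 had 1413 and 293 counts in MIA PaCa-2 and 1389 and 1856 in PANC-1, a log2 fold change of -2.42 (-2.61 to -2.24) against 0.15 (0.05 to 0.25). HOXB8 had 4247 and 1322 counts against 999 and 1167, and HOXB6 2579 and 850 against 2443 and 2732. HOXB9 moved least in MIA PaCa-2, from 4262 to 3902, and was higher in PANC-1, from 1547 to 3750. All 9 intervals of the difference between the lines lay below 0. HOXB5 overlaps HOXB-AS3 on the opposite strand. At the HOXA cluster, the antisense RNA gene HOXA-AS2, which overlaps HOXA3, had 785 and 99 counts in MIA PaCa-2 and 87 and 38 in PANC-1.

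Clock genes split in MIA PaCa-2 into 6 higher and 3 lower DEGs of 17, and PANC-1 had 4 higher and none lower of 16. Among the higher ones, RORA and CIART, with 1 and 7 counts with PBS, were tested only because the CBC library reached 1 CPM. The output factors DBP, TEF and the period gene PER3 were the 3 lower DEGs: DBP had 897 and 237 counts against 75 and 71 in PANC-1, TEF 616 and 279 against 295 and 643, and PER3 1298 and 431 against a log2 fold change of 0.82 in PANC-1. The repressors NFIL3 and BHLHE40 were higher, from 106 to 653 and from 290 to 1634 counts. NFIL3 was a higher DEG in PANC-1 too, from 287 to 1067, while BHLHE40 had 1355 and 1617 there. The core factors BMAL1 and CLOCK were not called (0.30 and -0.53). DBP overlaps SPHK2 on the opposite strand.

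**Figure D5:**
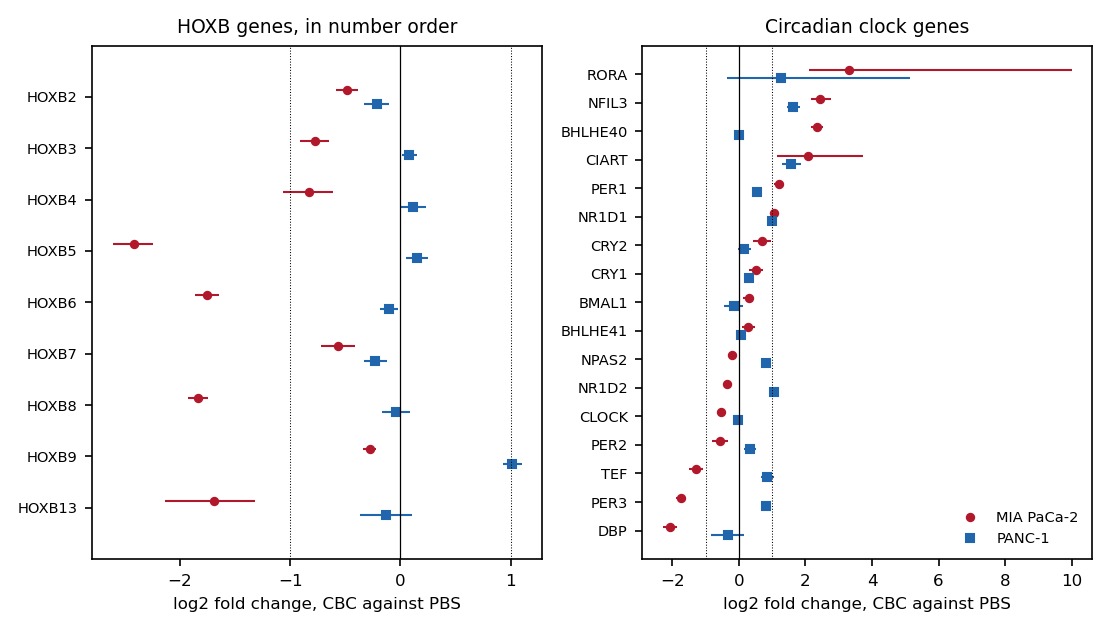
Log2 fold change (CBC against PBS, x axis) of HOXB genes in number order (left) and of clock genes (right) in MIA PaCa-2 (red circles) and PANC-1 (blue squares), with 95% counting intervals as bars (drawn up to 10) and dotted lines at 1 and -1. All 9 HOXB circles lie below 0, with HOXB5 at -2.42, and DBP, PER3 and TEF end the right panel at -2.06, -1.74 and -1.29.

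Enzymes of fatty acid and branched-chain amino acid oxidation had 10 lower and 2 higher DEGs of 35 in MIA PaCa-2 and a median of -0.44, against no lower and 2 higher of 34 and a median of 0.07 in PANC-1. Of the 10 lower DEGs, 6 were on the MIA PaCa-2 side. HADH had 1166 and 384 counts in MIA PaCa-2 and moved the same way in PANC-1, from 786 to 525 (-0.84). ACADSB had 841 and 337 counts against 774 and 1170, and SLC25A20, the carnitine carrier, 156 and 73 against 365 and 399. ETFDH and ETFB, which pass electrons from these enzymes to the respiratory chain, stood at -1.08 and -1.09, against 0.25 and -0.55 in PANC-1. BCAT1, which starts branched-chain amino acid breakdown in the cytosol, was higher in both lines, from 102 to 599 counts in MIA PaCa-2. The nuclear-encoded respiratory chain was at a median of -0.48 over 75 genes, with 3 lower DEGs, against -0.21 in PANC-1. Mitochondrially encoded transcripts took 5.81% of the counts with PBS and 3.86% with CBC in MIA PaCa-2, and 4.63% and 2.42% in PANC-1.

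Further lower DEGs differed in their level in PANC-1. CAVIN2, a caveola coat protein, had 4454 and 449 counts in MIA PaCa-2, KANK4, an adhesion regulator, 2395 and 451, and BRINP3 1865 and 284, while PANC-1 had at most 3 counts of each in either library. COL1A2, a chain of type I collagen, had 8174 and 2348 counts in MIA PaCa-2, against 0 and 1 in PANC-1. Its partner chain COL1A1 had only 11 and 13 in MIA PaCa-2, but 3037 and 1268 in PANC-1. The transcription factor gene WT1 had 611 and 88 counts, against 62 and 57 in PANC-1, and overlaps WT1-AS on the opposite strand. DPH6, an enzyme of diphthamide synthesis, had 1986 and 247 counts against 465 and 788, and it overlaps DPH6-DT. DOCK11, an activator of the GTPase CDC42, had 9548 and 3697 counts in MIA PaCa-2 and 48 and 237 in PANC-1. SYT1, a vesicle calcium sensor, had 1373 and 711 against 1136 and 3880. ZNF488 had the largest decrease, from 847 to 26 counts, and PANC-1 went the same way, from 62 to 14.

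Cell cycle genes were lower in both lines. Of 40 DNA replication genes 22 were lower DEGs at a median of -1.18, against 39 of 40 at -1.95 in PANC-1, and 36 of the 40 difference intervals lay above 0. Replication-dependent histone genes were lower in 26 of 33 cases, with 1 higher, at a median of -1.49 against -1.29, and formed 5 of the 24 runs of neighbouring lower DEGs, all on chromosome 6. The libraries were made from poly(A) RNA, which captures these transcripts poorly. H2BC4, H2BC5 and H2AC11 were lower on the MIA PaCa-2 side, H2BC4 from 329 to 109 counts against 224 and 270 in PANC-1.

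By gene class, 1217 of 11666 protein-coding genes were higher DEGs (10.4%) and 971 lower (8.32%), and of 1405 long non-coding RNA genes 235 were higher (16.7%) and 175 lower (12.5%). Low counts bear on such shares, since 79.3% of protein-coding genes under 1 CPM in the control were called higher, against 2.32% of those at 100 CPM or more. Long non-coding RNA took 1.52% of the counts with PBS and 2.18% with CBC. PAX8-AS1, which overlaps PAX8, had 344 and 3660 counts in MIA PaCa-2 and 3 and 7 in PANC-1, and LINC01629 had 19 and 346 against 6 and 13. Of the host genes of small nucleolar RNAs, GAS5 had 4580 and 12921 counts and ZFAS1 731 and 2621, and the list had 5 higher and 1 lower DEG of 25. The pseudogene NMRAL2P had 29 and 1014 counts against 0 and 4 in PANC-1, and ZDHHC8BP 1056 and 144 against 35 and 36.

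Zinc finger genes named ZNF, many of them transcription repressors, had more higher than lower DEGs in MIA PaCa-2. Of 409 tested, 74 were higher DEGs (18.1%) and 11 were lower (2.69%), with a median of 0.39, against 31 higher and 13 lower of 436 and a median of 0.20 in PANC-1. Within protein-coding genes at 10 to 100 CPM in the control, 10.3% of the ZNF genes were higher and 2.47% lower, compared with 6.08% and 7.31% of the others. The family was named after its values were seen. Neighbours are protein-coding genes that follow each other among those tested, at any distance. How many runs gene order alone would give was not computed. Along the chromosomes, 31 runs of at least 3 neighbouring higher DEGs held 103 genes and 24 runs of lower DEGs held 83. Among the former were ZNF44, ZNF563 and ZNF442 on chr19:12224686-12365905, and FUT1 and FGF21, a stress hormone gene, in a run with RASIP1 and IZUMO1 on chr19:48720585-48758333. The 4 genes of the latter run did not reach 1 CPM in PANC-1.

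Shares of promoter windows with a motif are given as a description, and their differences were not tested. The AP-1 site TGAGTCA stood in 8.01% of the windows of higher DEGs shared with PANC-1, in 3.49% of those higher on the MIA PaCa-2 side and in 2.88% of all windows. The C/EBP-ATF element TGATGNAA, the site of ATF4, stood in 5.23%, 2.33% and 1.59%. Of lower DEGs, those shared with PANC-1 held the E2F site in 17.7% and the cell cycle homology region TTTGAA in 25.4% of windows, against 5.78% and 7.94% on the MIA PaCa-2 side and 5.55% and 9.39% of all. The cyclic AMP response element TGACGTCA stood in 4.36% of the windows higher on the MIA PaCa-2 side, 3.83% of the shared higher windows and 3.50% of all, the antioxidant core TGACNNNGC, which can overlap other motifs, in 62 of 344 windows on that side, 57 of 287 shared ones and 15.3% of all, and the heat shock element GAANNTTC in 5.81%, 4.18% and 4.51%. The unfolded protein response element TGACGTGG stood in 1.16%, 2.09% and 0.936%. Other named genes that overlap a gene of the opposite strand are HSP90B1, SEC31A, COPA, ARF4, EIF2AK3, JUNB, NFKBIB, TNFRSF10B, MDM2, ETFDH, CAVIN2, H2BC4, GAS5 and ZFAS1. Each motif was counted on both strands, and no match says only that these letters are not in the window.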

How the data were processed

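mRNA of the 4 libraries (MIA PaCa-2 and PANC-1, PBS or CBC, 24 h) was poly(A)-selected, prepared with a directional kit and sequenced in pairs on a NovaSeq. Per the study's methods, the authors used cutadapt 2.7 for trimming, STAR for alignment (GRCh38) and HTSeq for counts per gene of Ensembl release 89. The strand setting is not given in the sources used here. The deposited raw counts were analysed here. The deposited CPM signal tables of the authors are TMM-scaled, differed from the counts so scaled by at most 6.84e-09 in relative terms, and served as an alternative. Columns of fold changes or p-values were not used.

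TMM factors were computed over the 4 libraries with edgeR 4.0.16 (R 4.3.3). Genes with at least 1 CPM in at least 1 library of a line were tested, log2 fold changes used a prior count of 2, and DEGs lay past 1. Doses and the 24 h are from the methods and labels. Intervals at 95% were exact (Clopper-Pearson) for a line and from the variance of log counts for the difference between lines. They cover counting error only, and reads are not independent molecules. Total counts were 21742775 to 27903667, and 3 counts, the floor used for genes at 0, are 0.110 to 0.135 CPM. Symbols and positions are from GENCODE 44 (57392 of 58233 identifiers matched). Named genes were the largest changes at 10 CPM or more, by direction, line and class, up to 5 per list and direction, runs of neighbours, markers and the largest shifts in library share, and others were named after their values were seen. Members and lists were chosen with earlier results of these data known. Some genes and a gene list are not reported here. Scripts were tested on simulated counts. Alternatives were other scalings (DESeq2 1.42.0 among them), filters, priors and call rules.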

Additional observations from a re-analysis of the deposited data

Results flagged for a closer look

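Among the genes of the lists or named by rule with at least 10 CPM in a library, 12 were called in opposite directions in the 2 lines. With 1 library a side the differences were not tested. Values are MIA PaCa-2 minus PANC-1 log2 fold changes. Those higher in MIA PaCa-2 and lower in PANC-1 were the endothelin gene EDN1 at 4.61 (6 and 27 counts against 1127 and 183), the activin subunit INHBB at 4.57 (32 and 239 against 808 and 261), IFIT1 at 3.67, the adhesion gene FERMT1 at 3.27 (2748 and 8846 against 168 and 59), the phosphatase DUSP2 at 2.84 (144 and 388 against 36 and 13), the death receptor TNFRSF21 at 2.45 (166 and 426 against 2294 and 1157), CSF1 at 2.36 and the matricellular gene CCN1 at 2.22 (2774 and 6681 against 13695 and 7641). Those lower in MIA PaCa-2 and higher in PANC-1 were KNDC1 at -2.50 (367 and 196 against 52 and 175), SYT1 at -2.61, the G protein subunit GNG7 at -2.65 (247 and 112 against 13 and 44) and DOCK11 at -3.52. The 12 were chosen for their opposite calls, so it adds no support that all their counting intervals of the difference excluded 0. The interval nearest to 0 was that of GNG7, from -3.68 to -1.81.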

How the results depend on the processing

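With 1 library a group, no library could be left out. No paired analysis was possible because each group has 1 library and no result comes from a test. The count of DEGs, 2864 in all, was 5816 with no filter on low counts, 1848 with at least 5 CPM, and 1719 when the counting interval had to lie past 2-fold. Higher DEGs were 3249 and 995 with those filters, 1039 with 1 CPM in both libraries and 1003 by interval. Lower DEGs were 2567 with no filter and 716 by interval. MIA PaCa-2-side DEGs, 852 in all, were 2499 with no filter, 537 with 5 CPM, 446 by interval, 340 with a PANC-1 limit of 0, 1414 with a limit of 1, and 364 where the difference interval, an alternative chosen after seeing the data, lay past 1. The other filters, priors and scalings left each count within 1.5 times, and higher genes were 52.2% to 61.9% of DEGs under every setting, the latter with library totals. All 69 called genes named by rule kept their call and direction under 4 scalings and 2 priors, except that 68 did with library totals. With library totals, 4 list medians within 0.04 of 0 changed sign (ribosomal proteins, heat shock chaperones, iron handling and mesenchymal genes). Depth limits genes under about 1 CPM, where few counts decide a fold.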
